A study of Mus musculus with 4 samples.

Results

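A set of 35 mouse genes for building ribosomes, comprising nucleolar proteins and the transcription factor Myc, was followed in the inferior vena cava after ligation. The genes were chosen by symbol with earlier results of these data known, and each was represented by its brightest probe set that the platform annotation assigns to 1 gene. Of the 35 genes, 33 had such a probe set among 18820 genes in all, and all 33 were among the 14115 genes kept after a filter on low values. Tsr1 and Ebna1bp2 were measured only by probe sets shared with another gene and entered no comparison.

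Each of the 4 groups was 1 array of RNA pooled from 4 mice, per the design text. Wild-type mice and Cd39-/- mice, labelled CD39 knockout and called Cd39-null here, which lack CD39 (the ATP- and ADP-degrading ectoenzyme encoded by Entpd1), were either ligated at the infrarenal vena cava for 48 h or underwent dissection of the vein without a ligature (sham). Both genotypes were on C57BL/6J after at least 8 backcross generations, were 8 to 10 weeks old and included males or females. The labels mention both complete and partial ligation, and do not say whether clot went into the RNA. Values are log2 expression after RMA, so a difference of 1 is 2-fold. With 1 array a group, a difference between arrays has no replicate check and no p-value, and the number of arrays limits the precision.

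Some facts of the whole series touch every value that follows. Entpd1 stood at 7.11 log2 in sham and 6.17 in ligated wild-type veins, at 4.16 in sham Cd39-null veins, and at 6.14 on the ligated array with the Cd39-null label. The last value goes against its label, so that array is called the labelled Cd39-null array after ligation, and every direction that uses it, those of the Cd39-null pair included, rests on the label. Where 4 values of a gene follow each other, they stand in the order sham wild type, ligated wild type, sham Cd39-null and labelled Cd39-null after ligation. The vessel wall was represented on all arrays. None of 10 endothelial markers and, on the labelled Cd39-null array after ligation only, 1 of 10 smooth muscle markers lay at or under background, taken as the 95th percentile of 995 olfactory receptor probe sets (2.67 to 2.97 log2). Of the 33 members, 2 were at or under it in sham and 1 in ligated wild-type veins, 3 in sham Cd39-null veins and 0 on the labelled Cd39-null array after ligation.

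Ribosomes are assembled in the nucleolus. RNA polymerase I transcribes a long ribosomal RNA precursor there, small nucleolar ribonucleoproteins methylate or pseudouridylate it, and large assemblies cut and fold it into the precursors of the small and large subunits. Cells that enter growth, among them activated leukocytes and wound fibroblasts, raise this output, and Myc is a well known activator of its genes. In a bulk piece of vein, more cells of a type and more RNA per cell cannot be told apart.

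Promoter sequences of the members were available for 30 genes from RefSeq (GRCm38.p6), each running from 250 bases before to 50 after an annotated start. The canonical E-box CACGTG, the motif bound by Myc with its partner Max, was searched there. It reads the same on both strands. It was found in 7 of 30 members (23.3%), in 19.2% of 104 other ribosome biogenesis genes, in 10.8% of 11186 genes kept with a promoter and in 8.09% of all 27025 genes with one. Only the match of Nop2 lay before the start, and the other 6 lay within the first 50 transcribed bases. Median GC content was 58.7% in the members and 60.0% in the genes kept. A match is a description of letters and not a measured binding site. The matches are given in the direction of transcription, with the motif in capitals and up to 10 bases on either side.
Nop2 (chr6:125131813-125131838, plus strand): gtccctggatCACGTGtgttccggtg
Pes1 (chr11:3963967-3963992, plus strand): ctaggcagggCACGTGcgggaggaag
Mybbp1a (chr11:72441357-72441376, plus strand): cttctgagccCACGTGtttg
Utp20 (chr10:88826765-88826787, minus strand): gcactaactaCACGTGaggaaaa
Wdr43 (chr17:71616222-71616247, plus strand): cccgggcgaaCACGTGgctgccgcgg
Pno1 (chr11:17211540-17211562, minus strand): tacaaccacgCACGTGttcctct
Tsr1 (chr11:74898094-74898119, plus strand): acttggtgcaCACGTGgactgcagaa

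Nhp2 and Nop16, the only members at least 2-fold higher after ligation in both genotypes, had no such match in this window. The 100 bases just before their annotated starts are printed because these are the promoters of the leading members.
Nhp2 (chr11:51619673-51619772, plus strand): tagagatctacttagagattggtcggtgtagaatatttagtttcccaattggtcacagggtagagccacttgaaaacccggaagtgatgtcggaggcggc
Nop16 (chr13:54590075-54590174, minus strand): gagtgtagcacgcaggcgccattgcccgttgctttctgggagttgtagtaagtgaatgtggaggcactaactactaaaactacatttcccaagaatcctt
The mean ligation difference over both genotypes had a median of 0.63 log2 in the 6 measured members with a match (0.01 to 0.97) and 0.51 in the 22 without one (-0.13 to 3.05), and the ranges overlapped.

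The first comparison asked how ligation altered these genes in each genotype. After ligation most members were higher, by modest amounts. In wild type 26 of 33 were higher, against 49.4% of all genes, with a median difference of 0.31 log2 against -0.01 for all genes. That median was 0.19 when the arrays were quantile normalised once more and 0.21 with cyclic loess. Between the labelled Cd39-null arrays 31 of 33 were higher, against 51.7% of all genes, with a median of 0.71 against 0.03. Under either of those scalings 28 were higher, with a median of 0.50 after quantile normalisation and 0.53 with cyclic loess. Both ligated arrays lay above both sham arrays for 19 of 33 members, against 28.0% of all genes, and below them for 0 members, against 26.0%. The 2 ligation differences share no array.

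Few members passed 2-fold, although the share at least 2-fold higher stood above that of all genes in both pairs. This contrast is limited by the choice of members with earlier results of these data known. In wild type 4 of 33 were at least 2-fold higher (Nhp2, Myc, Fbl and Nop16), against 6.60% of all genes, and 0 were 2-fold lower, against 3.63%. In the Cd39-null pair 9 were at least 2-fold higher (Nhp2, Nop16, Noc2l, Nop56, Ddx21, Nop2, Pes1, Nolc1 and Mrto4), against 10.9%, and 0 were lower, against 5.80%. This count was 4 with the arrays quantile normalised once more and 5 with cyclic loess; Nhp2, Nop16, Noc2l and Nop2 passed under all 3 scalings. At least 2-fold higher in both genotypes were 2 of 33, against 3.63% of all genes, and at least 2-fold lower in both were 0, against 1.45%. Differences of any size were higher in both genotypes for 25 members, against 34.7%, and lower in both for 1 (Rcl1), against 33.6%. Under the other scalings 24 were higher in both. At 1.5-fold in either direction, 9 members were apart in wild type and 19 in the Cd39-null pair, against 27.6% and 36.5% of all genes.

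The available test was limma with terms for surgery and genotype, fitted to all 14115 genes on the 4 arrays. It leaves 1 residual degree of freedom, and a response that differs between genotypes enters its error. At a Benjamini-Hochberg adjusted p of 0.05 it called 0 of 33 members for ligation, against 0.0% of all genes. At an unadjusted p of 0.05, 12 members were higher, against 13.2% of all genes, and 0 were lower, against 7.79%. The smallest adjusted p from limma among the members was that of Nhp2 (0.0952), a value that other genes shared and none went below. The count of 12 was 9 to 13 under the alternatives.

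**Figure D1:**
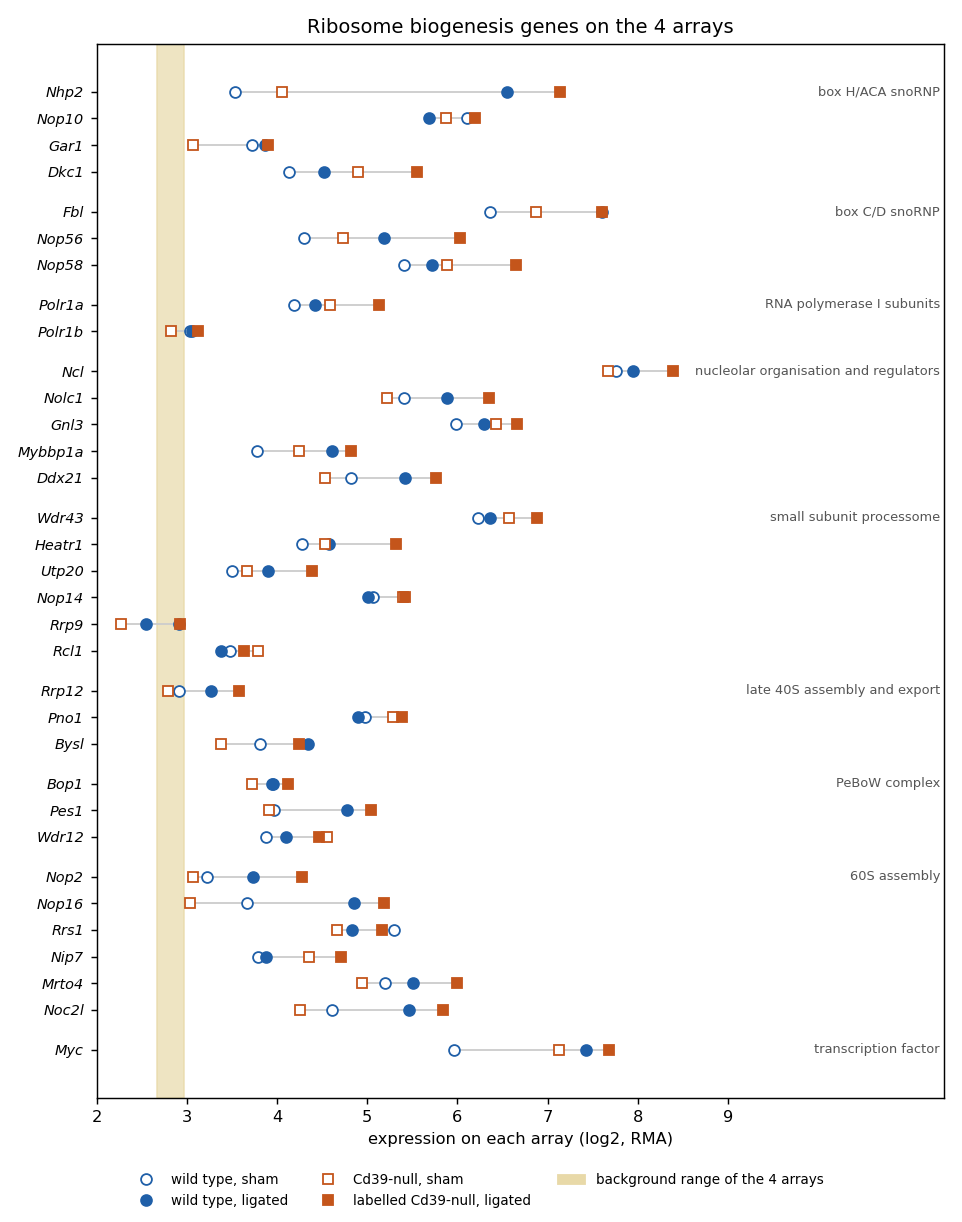
Log2 expression (RMA) of the 33 measured ribosome biogenesis genes on each of the 4 arrays, grouped by role; circles are wild type, squares Cd39-null by label, open symbols sham and filled symbols ligated, with 1 pooled array per symbol and the band spanning the background of the 4 arrays. The filled symbols of Nhp2 and Nop16 stand well to the right of their open ones, and levels of different genes come from different probes and are not comparable.

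The box H/ACA particle, which turns uridines of ribosomal RNA into pseudouridine, held the member with the largest difference. Nhp2, its core RNA-binding subunit, stood at 3.53 log2 in sham and 6.54 in ligated wild-type veins, 4.05 in sham Cd39-null veins and 7.14 on the labelled Cd39-null array after ligation. Both ligated arrays were far above both sham arrays, the lowest ligated value exceeding the highest sham value by 2.49 log2. This is 8.09-fold higher in wild type and 8.49-fold in the Cd39-null pair, ranking 5 and 76 of 14115 genes, and the limma mean was 3.05 ± 0.22 (SE, 4 arrays; adjusted p = 0.0952, range 0.0898 to 0.116 over the alternatives). The other subunits did not share this size. Dkc1, the pseudouridine synthase itself, was at 4.13, 4.52, 4.90 and 5.56 log2 in the same order of arrays, so its groups overlapped and both Cd39-null arrays exceeded both wild-type arrays. Gar1, which helps the enzyme turn over, was at 3.72, 3.87, 3.07 and 3.90, with a ligation difference of 0.15 in wild type and 0.83 in the Cd39-null pair. Nop10, a small scaffold between Nhp2 and Dkc1, went from 6.10 to 5.68 in wild type and from 5.87 to 6.19 in the Cd39-null pair, in opposite directions.

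The box C/D particle methylates ribosomal RNA on ribose. Its methyltransferase Fbl, or fibrillarin, was at 6.36 log2 in sham and 7.61 in ligated wild-type veins, 6.87 in sham Cd39-null veins and 7.60 on the labelled Cd39-null array after ligation. The ligated arrays were alike and above both sham arrays. A dimmer second Fbl probe set gave 3.04, 2.55, 2.29 and 3.17, under background in ligated wild-type and sham Cd39-null veins, so its differences say little. The scaffold protein Nop56 was at 4.30, 5.18, 4.73 and 6.03 log2, again with no overlap between ligated and sham arrays and a limma mean difference of 1.09 ± 0.24 (SE; adjusted p = 0.126, range 0.121 to 0.21 over the alternatives). Its partner Nop58 was at 5.41, 5.71, 5.89 and 6.65, where Cd39-null, sham, lay above wild type, ligated.

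Transcription of the precursor was represented by the large subunits of RNA polymerase I. Polr1a was at 4.19 log2 in sham and 4.42 in ligated wild-type veins, 4.59 in sham Cd39-null veins and 5.13 on the labelled Cd39-null array after ligation. Its ligation differences were 0.23 and 0.54. Polr1b was dim, at 2.83 to 3.12 over the arrays and under background in Cd39-null, sham, so its differences of 0.02 and 0.29 say little.

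Nucleolar organisers and regulators were all higher after ligation in both genotypes (5 of 5, against 34.7% of all genes). Gnl3, however, changed sign in the Cd39-null pair under the other scalings (0.23, then -0.01 and -0.02). The RNA helicase Ddx21, which binds ribosomal RNA precursors, was at 4.82, 5.42, 4.53 and 5.76 log2 over the arrays. Nolc1, which shuttles between nucleolus and cytoplasm and binds small nucleolar particles, was at 5.40, 5.88, 5.22 and 6.35. Mybbp1a, a nucleolar regulator of transcription, was at 3.78, 4.61, 4.24 and 4.82. For these 3 genes the ligated arrays lay above both sham arrays. Nucleolin (Ncl), the abundant histone-binding protein of the nucleolus, was at 7.76, 7.95, 7.66 and 8.39, with differences of 0.19 and 0.73. Its ligated arrays also lay above both sham arrays. A second Ncl probe set lay under background throughout (1.76 to 2.25). Gnl3, or nucleostemin, had 0.31 and 0.23 with overlapping groups.

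Small subunit processome genes, whose products carry out the first cuts of the precursor, had the smallest wild-type difference among roles with more than 1 gene (median 0.04 log2 over 6 genes; 0.49 in the Cd39-null pair). Heatr1 and Utp20, large scaffold proteins, had no overlap between ligated and sham arrays as deposited. Their differences were 0.30 and 0.78 for Heatr1 and 0.40 and 0.71 for Utp20. The Heatr1 gap was only 0.04, and its groups overlapped under the other scalings. There ligated wild type lay 0.19 and 0.21 above sham wild type, and sham Cd39-null lay 0.36 and 0.37 above it. Wdr43, a subunit that links the processome to transcription, had 0.13 and 0.31. Nop14, a processome subunit, had -0.05 and 0.03, and Rcl1, the cyclase-like member, had -0.11 and -0.15. The Nop14 sign in the Cd39-null pair turned to -0.25 and -0.22 under the other scalings. Rrp9, a protein of the particle that positions the first cuts, was at or under background on 3 of 4 arrays (2.91, 2.54, 2.27 and 2.93 log2).

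Late assembly of the small subunit was represented by 3 measured genes. Bysl, or bystin, which is needed to mature the small subunit, was at 3.81, 4.35, 3.37 and 4.25 log2 and Rrp12, an export factor, at 2.92, 3.27, 2.79 and 3.58. In both genes the ligated arrays were above both sham arrays, but Rrp12 was at or under background on both sham arrays. Pno1, which places the nuclease that matures the small subunit, had -0.07 and 0.10, the latter turning to -0.19 and -0.15 under the other scalings. Its second probe set gave 0.12 and 0.51.

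The PeBoW complex of Pes1, Bop1 and Wdr12 is needed to mature the RNA of the large subunit, and its genes did not differ alike. Pes1 was at 3.96 log2 in sham and 4.78 in ligated wild-type veins, 3.91 in sham Cd39-null veins and 5.04 on the labelled Cd39-null array after ligation, with both ligated arrays at least 0.82 above both sham arrays. A second Pes1 probe set lay under background throughout (2.15 to 2.34). Bop1 was at 3.95 in wild type with or without ligation and at 3.72 and 4.12 in the Cd39-null pair. Wdr12 had differences of 0.22 and -0.09, and its second probe set 0.12 and 0.87.

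Among the 6 measured genes of large subunit assembly, 5 were higher after ligation in both genotypes, against 34.7% of all genes. Nop16, a nucleolar assembly factor, was at 3.66 log2 in sham and 4.86 in ligated wild-type veins, 3.03 in sham Cd39-null veins and 5.19 on the labelled Cd39-null array after ligation. Both ligated arrays were at least 1.20 above both sham arrays, corresponding to 2.29-fold in wild type and 4.46-fold in the Cd39-null pair (limma mean 1.68 ± 0.31 SE; adjusted p = 0.11, range 0.0994 to 0.131 over the alternatives). Noc2l, which escorts early large subunits and also binds p53 and histones, was at 4.61, 5.46, 4.26 and 5.84 (mean 1.22 ± 0.28 SE by limma; adjusted p = 0.131, range 0.126 to 0.156). Its groups did not overlap either. The RNA methyltransferase Nop2 was at 3.23, 3.73, 3.07 and 4.28, and Mrto4, which holds the place of the ribosomal stalk, was at 5.20, 5.51, 4.94 and 6.00. In both of these genes the ligated arrays were above the sham arrays. A second Mrto4 probe set differed by 0.54 and 0.88, close to the brighter one (0.31 and 1.06). Nip7, an RNA-binding assembly factor, had 0.09 and 0.35 with overlapping groups. Rrs1, which helps bring a small ribosomal RNA into the large subunit, was at 5.30 in sham wild-type veins, its highest value, then 4.83, 4.66 and 5.16.

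Myc was at 5.96 log2 in sham and 7.42 in ligated wild-type veins, 7.13 in sham Cd39-null veins and 7.68 on the labelled Cd39-null array after ligation. Wild type, sham, was low and the other 3 arrays lay within 0.55 of one another. Myc was 2.76-fold higher after ligation in wild type and 1.46-fold in the Cd39-null pair (limma mean 1.01 ± 0.31 SE; adjusted p = 0.182, range 0.179 to 0.285 over the alternatives). Of 16 other genes of the Myc network and its usual targets, 8 were higher in both genotypes, against 34.7% of all genes, and 2 were at least 2-fold higher in both, against 3.63%. These were the spermidine synthase Srm (1.53 and 1.51) and the cyclin-dependent kinase Cdk4 (1.56 and 2.06). Mxd1, a Max partner that opposes Myc, was at 3.75, 4.26, 3.51 and 7.14, high on the labelled Cd39-null array after ligation alone.

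**Figure D2:**
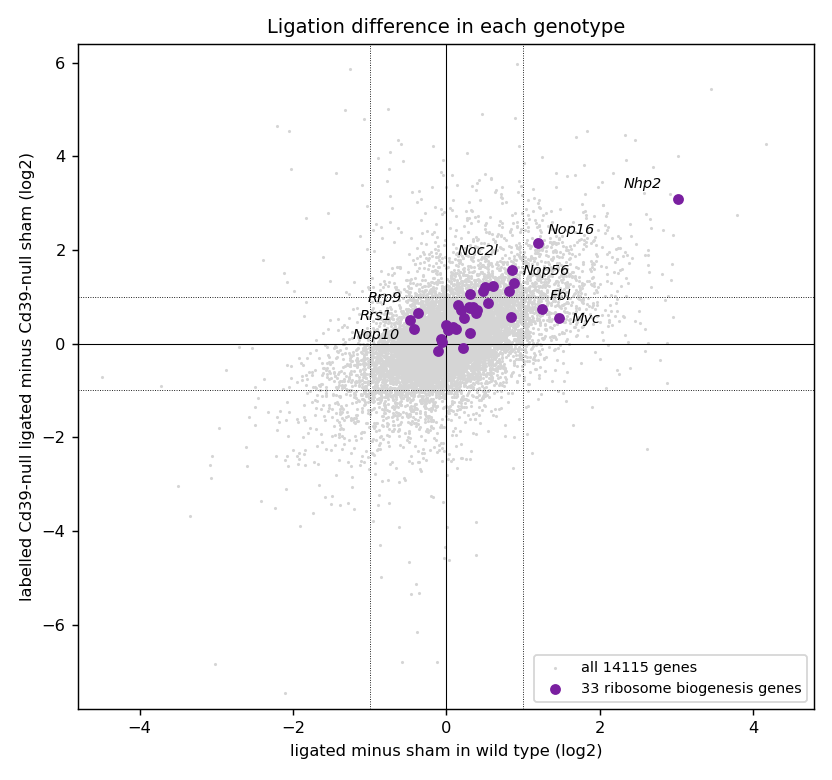
Ligation difference (log2) in wild type on the horizontal axis against that between the labelled Cd39-null arrays on the vertical axis; grey dots are all 14115 genes, purple dots the 33 ribosome biogenesis genes, and dotted lines mark 2-fold. Most purple dots lie above 0 on both axes but under 2-fold, while Nhp2 lies at 3.02 and 3.09.

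The size of the ligation difference also differed between the wild-type pair and the pair labelled Cd39-null. It was larger in the Cd39-null pair than in wild type for 27 of 33 members, against 52.9% of all genes, by a median of 0.33 log2 against 0.04. The exceptions as deposited were Myc (smaller by 0.92), Fbl (by 0.51), Wdr12 (by 0.31), Mybbp1a (by 0.26), Gnl3 (by 0.08) and Rcl1 (by 0.04). Nhp2 joined them under the other scalings. Its Cd39-null difference was 2.88 against 2.96 in wild type after quantile normalisation, and 2.83 against 2.91 with cyclic loess. Nop14 did so too (-0.25 against -0.19, then -0.22 against -0.16). This difference of differences has no test in 4 unreplicated arrays. With wild type, sham, as the reference for the labelled Cd39-null array after ligation, 32 of 33 members were higher, against 47.5% of all genes, and 12 were at least 2-fold higher, against 9.52%.

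The next comparison set Cd39-null against wild type. In sham veins the members showed no common direction. Here 17 of 33 were higher in Cd39-null, against 43.3% of all genes, with a median of 0.17 log2 that was -0.05 with the mean of each gene's probe sets. Myc (1.17 log2, or 2.26-fold) was the 1 member at least 2-fold higher, against 2.95%, and 0 were lower, against 3.54%. Dkc1 (0.77), Wdr12 (0.67) and Nip7 (0.58) followed on the higher side, although the second Wdr12 probe set, nearly as bright, gave 0.03. At 1.5-fold in either direction, 7 members were apart in sham veins, against 22.6% of all genes. The lowest were Rrp9 (-0.65, near background), Gar1 (-0.65), Rrs1 (-0.64) and Nop16 (-0.63).

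In ligated veins the members were higher on the labelled Cd39-null array almost throughout. There 31 of 33 were higher, against 45.7% of all genes, with a median of 0.38 log2 against -0.03. The exceptions were Bysl (-0.10) and Fbl, which was at 7.60 there and 7.61 in ligated wild-type veins. Only Dkc1 was at least 2-fold higher (1.04), against 3.61%, and it was under 2-fold (0.96) after quantile normalisation; 0 were lower, against 2.66%. Nop58 (0.93), Nop56 (0.85) and Nip7 (0.84) came next. At 1.5-fold in either direction, 7 members were apart, against 17.8%. The members' highest value fell on this array for 28 of 33, against 25.5% of all genes and 57 of 115 other ribosome biogenesis genes, and their lowest value on it for 0 of 33, against 29.1% of all genes.

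For genotype over both surgeries, limma called 0 of 33 members at an adjusted p of 0.05, against 0.0% of all genes. At an unadjusted p of 0.05, 4 were higher, against 2.28%, and 0 were lower, against 4.65%. These 4 were Dkc1 (0.90 ± 0.23 SE; adjusted p = 0.679), Nip7 (0.71), Nop58 (0.71) and Nop56 (0.64), and 0 had an unadjusted p under 0.05 when ligation was left out of the model.

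The other genes of the pathway differed less, a contrast limited by the choice of members and lists with earlier results of these data known. The list held 126 further ribosome biogenesis genes, of which 115 had a probe set of their own. In wild type 69 were higher after ligation, against 49.4% of all genes, with a median of 0.09 log2, and 2 were at least 2-fold higher, against 6.60%. In the Cd39-null pair 89 were higher, against 51.7%, with a median of 0.38, and 11 were at least 2-fold higher, against 10.9%. In either pair 0 were 2-fold lower, against 3.63% and 5.80%. Higher in both genotypes were 60, against 34.7%. Both ligated arrays lay above both sham arrays for 52, against 28.0%, and below them for 13, against 26.0%. By limma 15 of 115 were higher at an unadjusted p of 0.05 and 2 lower, against 13.2% and 7.79% of all genes, and 0 passed an adjusted p of 0.05. Neither the 2-fold counts nor the limma count of higher genes stood above the share over all genes, while the counts higher by any amount did. The highest were Ppan, a large subunit factor (1.40 and 1.27, from a level under background in sham), Rrp1b (0.93 and 1.23), Urb2 (0.86 and 1.18), the polymerase I initiation subunit Taf1d (1.17 and 0.69) and the helicase Ddx54 (0.62 and 1.23). The lowest were Nol8 (-0.79 and -0.45), Utp3 (-0.78 and -0.44), Dnttip2 (-0.60 and -0.58), Taf1b (-0.74 and -0.41) and Fcf1 (-0.19 and -0.70).

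Cytosolic ribosomal protein genes, which encode the finished particle's own proteins, stayed near 0 as a list. Of 78 genes 67 had a probe set of their own, and their medians were 0.03 in wild type and 0.04 in the Cd39-null pair. Here 37 and 34 were higher, against 49.4% and 51.7% of all genes. Both ligated arrays lay above both sham arrays for 28 of 67, against 28.0%, and below them for 24, against 26.0%. As shares of the list, both counts stood above those of all genes. By limma 11 of 67 were higher at an unadjusted p of 0.05 and 2 lower, against 13.2% and 7.79% of all genes. At an adjusted p of 0.05, 0 passed. In each pair 4 of 67 were at least 2-fold higher, not above the 6.60% and 10.9% of all genes, 3 of them in both: Rps9 (1.55 and 1.03), Rpl8 (1.08 and 1.15) and Fau (1.07 and 1.15). These genes have many processed copies in the genome, which whole-transcript probes may also detect.

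**Figure D3:**
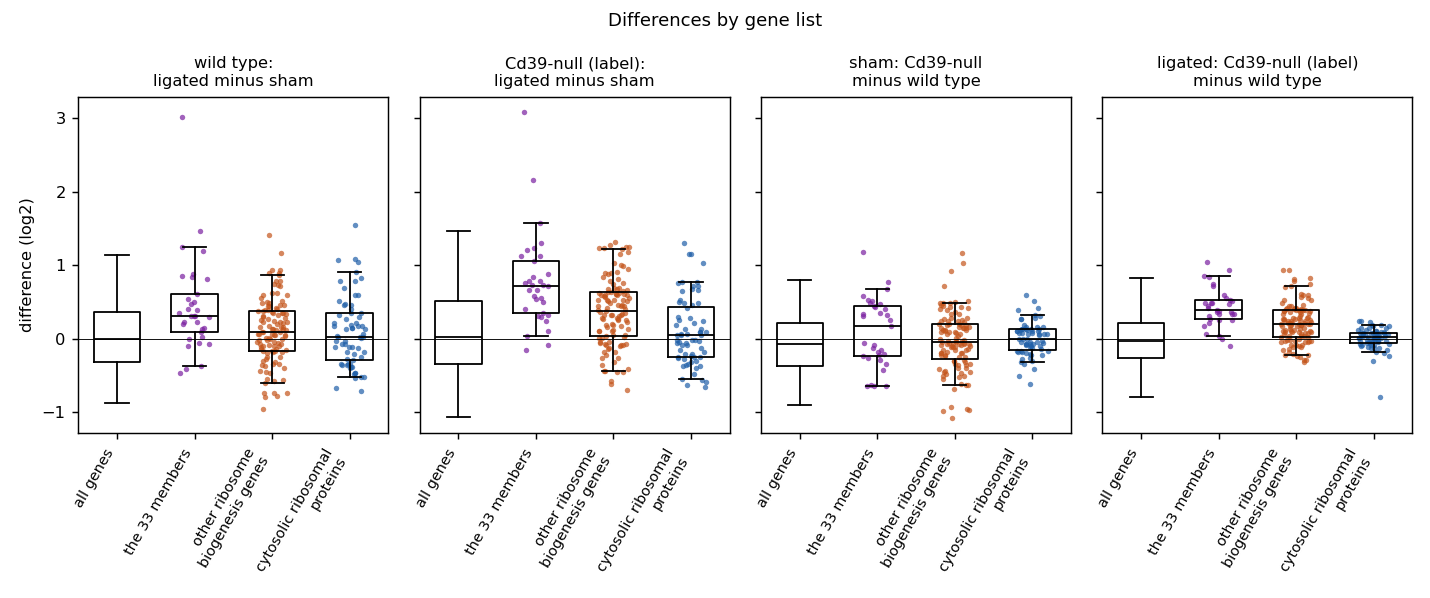
Log2 differences in the 4 comparisons for all 14115 genes, the 33 members, 115 other ribosome biogenesis genes and 67 cytosolic ribosomal protein genes; boxes span the quartiles with the median, whiskers the 5th to 95th percentile of genes, and dots are single genes. With the values as deposited, the members' medians are 0.31, 0.71, 0.17 and 0.38 from left to right, and those of the ribosomal proteins stay between -0.01 and 0.04.

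Cell type markers moved with the same arrays. Their mean levels follow the same order of arrays. The members' mean was 4.52, 4.96, 4.61 and 5.38 log2. The mean of 9 macrophage markers was 4.99, 7.12, 5.21 and 7.26, with 9 and 7 of them at least 2-fold higher after ligation in the respective genotypes, against 6.60% and 10.9% of all genes. The mean of 19 cell cycle genes was 3.99, 5.61, 4.43 and 5.37, with 15 and 8 at least 2-fold higher. By these means, ligated arrays were higher than sham arrays in macrophage and cell cycle genes in both genotypes. The median cell cycle difference was 1.57 log2 in wild type and 0.77 in the Cd39-null pair. In sham veins 3 of 19 cell cycle genes were at least 2-fold higher in Cd39-null than in wild type, against 2.95% of all genes.

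Other lists set the labelled Cd39-null array after ligation apart. The mean of 9 neutrophil markers was 5.08, 5.41, 5.81 and 8.35 log2, and that of 7 platelet markers 5.56, 4.46, 4.05 and 8.20. Between the ligated arrays all 9 neutrophil markers and 6 of 7 platelet markers were at least 2-fold higher on it, against 3.61% of all genes. Of the 33 members 1 was at least 2-fold higher on it. By any amount 31 were higher, against 45.7% of all genes. The smooth muscle mean was 7.11, 6.46, 5.58 and 5.13, the endothelial mean 6.92, 5.82, 5.90 and 5.92, and the fibroblast mean 6.66, 7.07, 6.36 and 6.18. Cd39-null, sham, the reference of the Cd39-null pair, was high in adipocyte markers (5.88, 5.79, 7.69 and 5.35), B cell markers (3.05, 2.49, 4.67 and 2.68) and T cell markers (3.17, 2.73, 4.13 and 3.29). At or under background were 3, 5, 0 and 4 of 7 B cell markers. The part of these cell types in the members' differences was not tested.

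**Figure D4:**
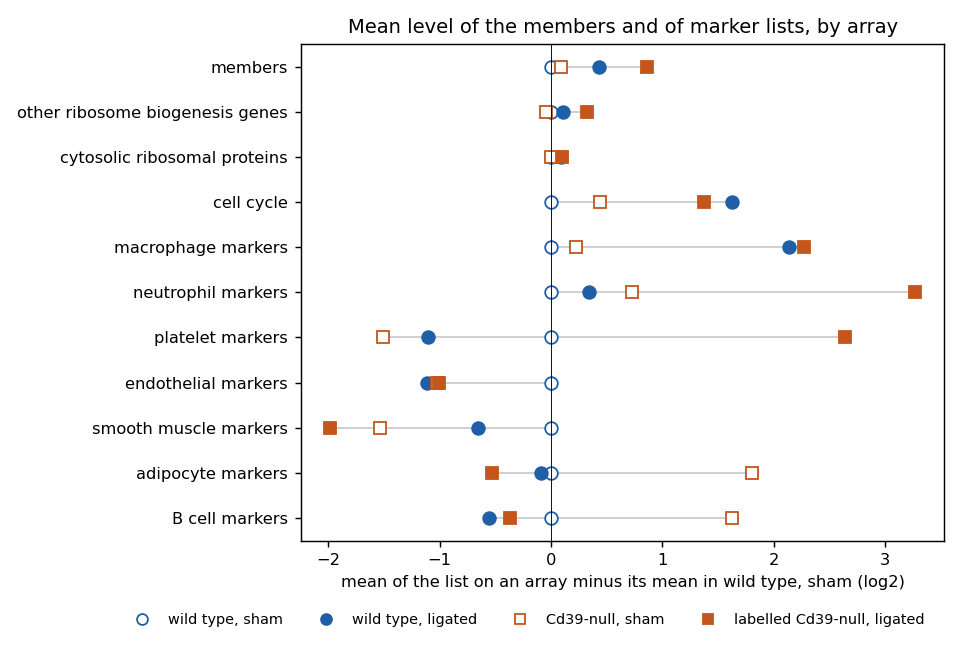
Mean log2 level of the 33 members and of 10 gene lists on each array, minus the list's mean in wild type, sham; symbols are as for the single genes and each is 1 pooled array. The members are highest on the labelled Cd39-null array after ligation, which is also the array where neutrophil and platelet markers are highest. Other ribosome biogenesis genes and macrophage markers are highest there too, as are ribosomal protein genes by a very small margin.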

How the data were processed

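Total RNA of 4 pooled mice per group was amplified from 50 ng and hybridised to 1 whole-transcript array per group, per the labels' protocols and the design text. The authors deposited log2 values for each probe set, and the submitters' processing notes name RMA and oligo without versions. They were used as deposited. The platform annotation gave 1 symbol for 21218 of 35556 probe sets, several for 1881 and no symbol for 12457. The brightest probe set by mean over the arrays stood for a gene, and genes with a mean at or above the 25th percentile (2.29) were kept. All 33 members' symbols matched RefSeq (GRCm38.p6) by Entrez identifier.

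Differences between arrays were called at 2-fold. A model of surgery and genotype was fitted with limma 3.58.1 (lmFit, eBayes; prior degrees of freedom 3.67) in R 4.3.3 across all genes and adjusted by Benjamini-Hochberg. The code was also run on simulated data with independent noise and a known added ligation difference. Such a run cannot show whether the p-values hold for unreplicated arrays. Every member is named; from the other pathway genes the 5 highest and 5 lowest mean ligation differences, and from each other list up to 3 genes. Members and lists were chosen with earlier results of these data known.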

Additional observations from a re-analysis of the deposited data

Results flagged for a closer look

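Ligation differences of opposite direction in the 2 genotypes, each over 0.2 log2, were found for 3 members, and the difference between the genotypes was not tested because each group is 1 array. They were Rrp9 (-0.37 in wild type and 0.66 in the Cd39-null pair, 1.03 apart), which was at or under background on 3 arrays, Rrs1 (-0.47 and 0.50, 0.97 apart) and Nop10 (-0.42 and 0.32, 0.74 apart). Nop10 was no longer over 0.2 in the Cd39-null pair when the arrays were quantile normalised once more (0.02) or scaled by cyclic loess (0.06).

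Genotype differences of opposite direction in sham and ligated veins, likewise untested and over 0.2 log2 each way, were found for the same 3 genes and 4 more. Lower in sham and higher in ligated veins on the arrays labelled Cd39-null were Nop16 (-0.63 and 0.33, 0.96 apart), Mrto4 (-0.26 and 0.49, 0.75 apart), Noc2l (-0.35 and 0.37, 0.72 apart) and Ddx21 (-0.29 and 0.33, 0.62 apart). Under quantile normalisation and cyclic loess the sham difference shrank below 0.2 for Mrto4 (-0.16 and -0.15) and Nop10 (-0.16 and -0.12), and under cyclic loess for Ddx21 (-0.18). The second Mrto4 probe set gave 0.09 in sham veins, the opposite sign.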

How the results depend on the processing

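At least 2-fold apart were 4, 9, 1 and 1 members (wild type ligation, Cd39-null ligation, genotype in sham, genotype in ligated veins). With 1.5-fold as the threshold these were 9, 19, 7 and 7 of 33, against 27.6%, 36.5%, 22.6% and 17.8% of all genes. Quantile normalisation gave 4 in the Cd39-null pair and 0 for genotype in ligated veins, and cyclic loess 5 in the Cd39-null pair. The cause was not tested. The other counts past 2-fold, those higher in both genotypes and those with separate ligated and sham arrays stayed within 1.5 times under every scaling, filter and probe set rule tried, and limma called 0 members throughout. Of 648 single-member values under an alternative, 13 passed 2-fold as deposited and not under the alternative, and 0 of those past 2-fold changed sign. Below 2-fold, another scaling turned 3 signs in the Cd39-null pair (Gnl3, Nop14 and Pno1) and 1 for genotype in sham veins (Pes1, -0.05 to 0.05). Fbl in wild type was 0.38 with the mean of its probe sets, the second of which lay under background on 2 arrays. No paired analysis was possible because each group is 1 array and the labels give no replicate numbers. Background limits Rrp9, Rrp12 and Polr1b.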

Other observations

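The probe sets shared with another gene gave values that cannot be assigned to 1 gene. The one annotated to both Tsr1, a GTPase-like factor of late small subunit assembly, and Srr was at 4.95 log2 in sham and 4.93 in ligated wild-type veins, 4.89 in sham Cd39-null veins and 5.27 on the labelled Cd39-null array after ligation. The one annotated to both Ebna1bp2, a large subunit factor, and D4Ertd617e was at 4.70, 5.04, 4.67 and 5.50 in the same order. Both were highest on the labelled Cd39-null array after ligation.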
